A study of Mus musculus with 23 samples.

Results

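The genes described here carry fatty acids into and through the fat cell and store or release them as triglyceride: Fabp4, Fabp5, Cd36, Lpl, Plin2, Acsl1, Dgat2, Scd1, Pnpla2 and Ldah. They were found by symbol on expression arrays of 23 clonal mouse preadipocyte lines, and 9 of the 10 had a probe set (a group of short probes against 1 transcript) annotated to that symbol alone, out of 18193 genes with one. Acsl1, which joins fatty acids to coenzyme A, was not analysed here. Where a gene had several probe sets, the one with the highest mean over all lines gave its value. A gene was tested where its value exceeded the median of the whole table, 5.13 on the log2 scale, in at least 3 lines. That left 12307 genes and 8 of the 9, since Cd36 stayed below in every line. Fabp4 passed through lines outside Type 1, and the other 7 genes tested lay above that level in every line.

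Each line had grown from 1 cell of the stromal vascular fraction, the cells of fat tissue other than its fat cells. The tissue was fat from below the skin and around the gonads of 1 male Immortomouse, 8 weeks old, whose cells hold a temperature-sensitive viral antigen that keeps them dividing. All lines share that mouse, 2 passages before single cells were sorted (190 in all), growth at 33 °C and interferon gamma at 10 units/mL, which keeps the antigen on. The labels assign the lines to Type 1 (3 lines), Type 2 (5 lines), Type 3 (8 lines) or Other (7 lines). Clone names begin with SCF in 12 lines and PGF in 11, read here as the subcutaneous and the perigonadal depot. Type 1 held 3 PGF lines, Type 2 held 4 SCF and 1 PGF, Type 3 held 4 of each, and Other held 4 SCF and 3 PGF. A differentiation score, on a scale the labels give as 1 to 4, was 2 in 11 lines (all 3 of Type 1, 3 of Type 2, 2 of Type 3, 3 of Other), 3 in 7 lines (4 of Type 3, 3 of Other) and 4 in 5 lines (2 of Type 2, 2 of Type 3, 1 of Other). Lipid build-up had been judged by Oil Red O, a dye for neutral fat, after induction; the sources used here do not say whether the arrayed RNA came from induced cells. Each line is 1 clone on 1 array, so errors and p-values reflect how clones differ from each other. The types had themselves been formed by clustering expression data, so p-values between types describe those groups and are not independent evidence for them. A lower value could mean fewer cells making a transcript or less of it in each cell, and these cannot be told apart.

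White fat cells take up fatty acids that lipoprotein lipase frees from circulating lipoproteins, with Cd36 as a membrane receptor and the fatty acid binding proteins as carriers inside the cell. Acyl chains are activated, desaturated and joined to glycerol, and the triglyceride is stored in droplets coated with perilipins, from which adipose triglyceride lipase starts its breakdown. Many of these genes are targets of PPARG, a nuclear receptor that drives fat cell formation and binds DNA with RXR at repeats of the half-site AGGTCA. Lipoprotein lipase is made early in the lineage, and much of the rest of the route rises as precursors become fat cells.

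To show what lies in front of the genes, the 250 bases before the transcription start are given for 4 of them, from RefSeq on GRCm38.p6. Pnpla2 and Ldah are shown because they differed between types in opposite senses, Plin2 because it passed in no comparison, and Cd36 because its signal was near the bottom of the scale. The windows are chr7:141454938-141455187 on the plus strand for Pnpla2, chr12:8207876-8208125 on the plus strand for Ldah (1 of 2 start sites listed), chr4:86670060-86670309 on the minus strand for Plin2 and chr5:17835897-17836146 on the minus strand for Cd36. Sequences run 5′ to 3′ and capitals mark matches, on either strand, to 4 short motifs. The nuclear receptor half-site was searched as AGGTCA. The GC box, a common site of general activators, was searched as GGGCGG. For the box named after its letters CCAAT that run was used, and for the core promoter element known as the TATA box the run was TATAAA.
Pnpla2: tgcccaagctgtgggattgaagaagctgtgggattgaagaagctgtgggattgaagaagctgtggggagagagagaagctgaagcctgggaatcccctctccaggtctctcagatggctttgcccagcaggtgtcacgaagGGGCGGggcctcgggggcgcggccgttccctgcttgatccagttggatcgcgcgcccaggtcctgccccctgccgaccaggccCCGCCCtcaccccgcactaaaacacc
Ldah: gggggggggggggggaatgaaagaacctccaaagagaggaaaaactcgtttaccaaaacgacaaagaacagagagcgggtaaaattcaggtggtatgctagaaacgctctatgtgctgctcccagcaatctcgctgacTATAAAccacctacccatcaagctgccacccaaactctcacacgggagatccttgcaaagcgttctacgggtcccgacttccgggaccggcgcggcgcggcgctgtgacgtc
Plin2: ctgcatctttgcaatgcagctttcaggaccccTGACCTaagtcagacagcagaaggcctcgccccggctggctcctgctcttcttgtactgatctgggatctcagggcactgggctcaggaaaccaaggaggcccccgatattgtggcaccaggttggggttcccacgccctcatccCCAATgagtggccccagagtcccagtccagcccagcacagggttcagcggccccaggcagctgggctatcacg
Cd36: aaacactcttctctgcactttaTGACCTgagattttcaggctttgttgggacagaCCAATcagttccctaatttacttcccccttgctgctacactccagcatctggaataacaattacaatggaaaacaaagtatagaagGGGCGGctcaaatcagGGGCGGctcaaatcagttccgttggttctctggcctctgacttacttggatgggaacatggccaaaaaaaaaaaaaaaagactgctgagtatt
Plin2 and Cd36 each held 1 half-site, at base -218 and base -228 from the start, and Pnpla2 and Ldah held none. None of the 4 windows held the direct repeat AGGTCANAGGTCA, or CACGTG, an E-box. Pnpla2 had 2 GC boxes, Cd36 had 2 GC boxes and 1 CCAAT box, and Plin2 had 1 CCAAT box. Ldah had 1 match to the TATA run, at base -112 from the start shown. Among 32851 windows of this length, 14.0% held the half-site, 32.7% a GC box, 33.8% a CCAAT box, 12.4% a TATA box, 6.02% the E-box and 0.0335% the direct repeat. A match is a run of letters and was not tested as a binding site. Entries were matched for 5 of the 10 genes; Fabp4, Fabp5, Lpl, Dgat2 and Scd1 were not matched.

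In outline, the 2 carriers Fabp4 and Fabp5 were lower in Type 1 than in every other group, and the triglyceride lipase Pnpla2 was higher. Dgat2, an enzyme of the last step of triglyceride synthesis, was lower too, by smaller differences. Its call against Type 2 was lost in 21 of 33 alternative fits. Lpl and Plin2 did not pass in any comparison. Against Type 2, 5 of the 8 genes tested passed an adjusted p of 0.05 (1 higher and 4 lower in Type 1), where 25.2% of all genes tested did, 14.5% higher and 10.7% lower (limma with Benjamini-Hochberg adjustment over all 12307 genes). The median difference of the 8 was -0.39, against 0.01 over all genes. Against Type 3, 5 of 8 passed (1 higher, 4 lower), where 34.7% of all genes did (18.9% higher and 15.8% lower), with a median of -0.32 against 0.01. Against Other, 4 of 8 passed (3 higher and 1 lower in Other), where 28.4% of all genes did (12.4% higher and 16% lower). Each of these counts with Type 1 includes Fabp4, which met the filter on low values only through lines outside Type 1. Entry by that path favours a difference from Type 1. Between Type 2 and Type 3, 1 of 8 passed, where 0.382% of all genes did (0.203% higher and 0.179% lower). None of the 8 passed for Other against Type 2 (0.00813% of all genes) or Other against Type 3 (0%); unadjusted p was under 0.05 for 1651 and 1083 of all genes (limma). These comparisons share lines, so they are given side by side and not as repeats of each other.

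**Figure D1:**
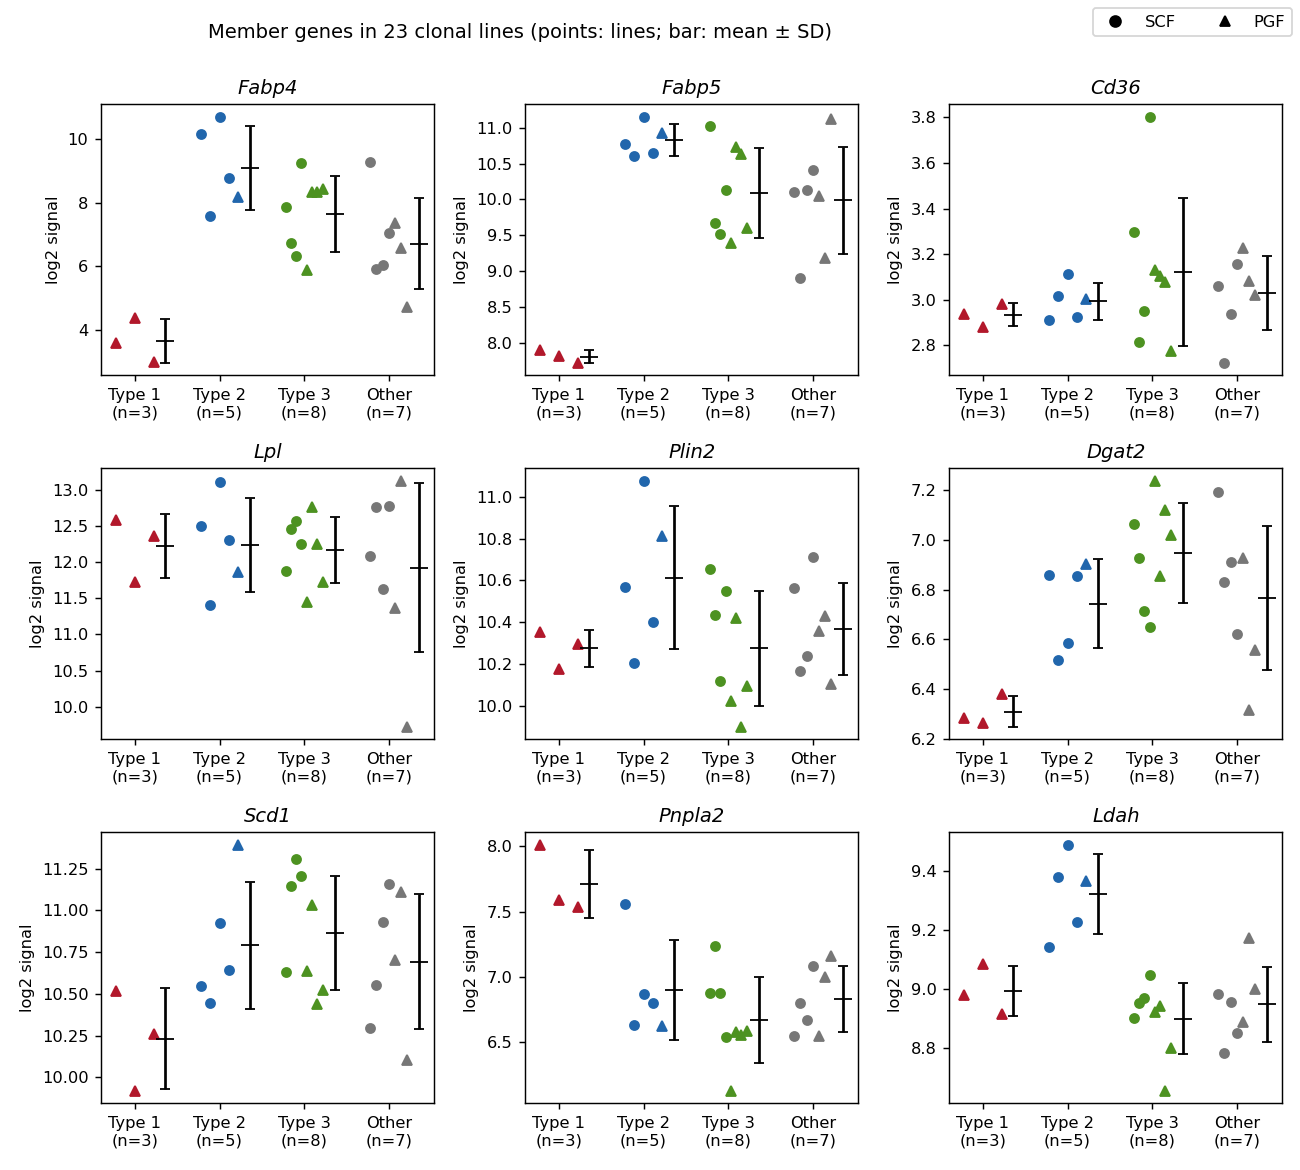
Log2 signal of 9 genes (y axis, its own range in each panel) in the 23 lines, by group on the x axis; circles are SCF and triangles PGF lines, and the bar beside each group is the mean with its SD. In Fabp4 and Fabp5 the 3 Type 1 lines, at 3.01 to 4.38 and 7.71 to 7.89, lie below all 20 others, while Lpl spans 9.72 to 13.12 with the groups overlapping.

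Fabp4 encodes the fatty acid binding protein of fat cells and macrophages. Its level was 3.60, 4.38 and 3.01 in the Type 1 lines and 10.16, 7.58, 10.69, 8.76 and 8.19 in the Type 2 lines. In Type 3 the lowest, median and highest lines had 5.90, 8.09 and 9.23, and in Other 4.74, 6.57 and 9.28. The Type 1 lines were thus below every line of the other groups, and Type 2 overlapped Type 3 and Other. The difference between Type 1 (3.66 ± 0.69, SD, n = 3) and Type 2 (9.07 ± 1.31, n = 5) was -5.41 ± 0.86 (SE; adjusted p = 6.73e-05, limma). Against Type 3 (7.64 ± 1.18, n = 8) it was -3.98 ± 0.80 (adjusted p = 0.000529, limma), and Other (6.71 ± 1.42, n = 7) exceeded Type 1 by 3.05 ± 0.81 (adjusted p = 0.00713, limma). In the order Type 2, Type 3, Other and Type 1, the first 3 did not differ beyond the test's threshold: Type 2 exceeded Type 3 by 1.44 ± 0.67 (adjusted p = 0.269, limma), Other lay -0.93 ± 0.61 from Type 3 (adjusted p = 0.685, limma) and -2.37 ± 0.69 from Type 2 (adjusted p = 0.1495, limma). All 3 Type 1 values are below the table's median and no detection calls were used, and those values fall in the range of the low Fabp4 probe sets described next, so no fold is given.

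A second Fabp4 probe set followed the first closely (r = 0.993 over 23 lines, a description) and gave -4.81 against Type 2 and -3.44 against Type 3, both passing. A further pair of Fabp4 probe sets stayed at 3.48 to 4.52 and 2.87 to 4.10 in all lines. With all 4 averaged the differences shrank to -2.74 from Type 2 and -1.93 from Type 3, and Other exceeded Type 1 by 1.51, all still past the threshold (adjusted p = 8.36e-05, 0.000967 and 0.00934, limma). The low pair varied little, so the average rests mainly on the first and second probe sets and is not separate support.

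Fabp5 encodes a related carrier found in skin, macrophages and many other cells. Its level was 7.89, 7.81 and 7.71 in the Type 1 lines and 10.78, 10.61, 11.15, 10.64 and 10.93 in the Type 2 lines. The lowest, median and highest lines had 9.39, 9.90 and 11.02 in Type 3 and 8.90, 10.10 and 11.12 in Other. Type 1 was narrow and lay wholly below the rest, and the Type 2 lines clustered near the top of the range that Type 3 and Other covered. Type 1 (7.80 ± 0.09, n = 3) differed from Type 2 (10.82 ± 0.22, n = 5) by -3.02 ± 0.40 (adjusted p = 6.97e-06, limma), an 8.10-fold lower signal. The difference from Type 3 (10.09 ± 0.63) was -2.28 ± 0.37 (adjusted p = 6.06e-05, limma), and Other (9.98 ± 0.75) exceeded Type 1 by 2.18 ± 0.38 (adjusted p = 0.000163, limma). Type 2 exceeded Type 3 by 0.74 ± 0.31, which did not pass (adjusted p = 0.225, limma). The second Fabp5 probe set ran in parallel (r = 0.996 over 23 lines) and passed in both comparisons of Type 1 with a numbered type.

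Of genes that act at the cell surface, Cd36 gave a signal between 2.72 and 3.80 in all 23 lines, against a table minimum of 2.03. Its highest value, 3.80, was in line 4 of Type 3, followed by 3.30 in line 1 of Type 3. The other Cd36 probe sets ran from 2.59 to 3.45 and from 2.58 to 2.98, so no Cd36 probe set reached the table's median in any line. Line 4 of Type 3 was also the line with the highest Adipoq, the fat cell hormone adiponectin, at 6.48 against 2.72 to 3.96 in the other 22 lines, and the highest G0s2, an inhibitor of adipose triglyceride lipase, at 6.24; that line was singled out after its values were seen.

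Lpl encodes lipoprotein lipase, the secreted enzyme that frees fatty acids from lipoproteins. Its signal was high everywhere: 12.58, 11.73 and 12.36 in the Type 1 lines, and 12.49, 11.40, 13.11, 12.31 and 11.86 in the Type 2 lines. In Type 3 the lowest, median and highest lines had 11.45, 12.25 and 12.77, and in Other 9.72, 12.09 and 13.12. All groups overlapped, and line 7 of Other stood apart at 9.72, with 11.36 as the next lowest of all lines. Type 1 (12.22 ± 0.44) and Type 2 (12.24 ± 0.65) differed by -0.01 ± 0.54 (adjusted p = 0.989, limma), and Type 1 and Type 3 (12.17 ± 0.45) by 0.06 ± 0.50 (adjusted p = 0.943, limma). The second Lpl probe set (r = 0.98) passed in none of the 3 comparisons between numbered types either.

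Dgat2 encodes a diacylglycerol acyltransferase of the last step of triglyceride synthesis. Its level was 6.28, 6.26 and 6.38 in the Type 1 lines and 6.86, 6.52, 6.58, 6.85 and 6.90 in the Type 2 lines. The lowest, median and highest lines had 6.65, 6.97 and 7.24 in Type 3 and 6.31, 6.83 and 7.19 in Other. Type 1 lay below all lines of Type 2 and Type 3 and overlapped Other through line 6 of Other at 6.31. The differences were small: -0.64 ± 0.15 from Type 3 (6.95 ± 0.20, adjusted p = 0.00188, limma), a 1.56-fold lower signal, and -0.44 ± 0.16 from Type 2 (6.74 ± 0.18, adjusted p = 0.0485, limma). Other (6.76 ± 0.29) exceeded Type 1 by 0.46 ± 0.15 (adjusted p = 0.0264, limma). The call against Type 2 was marginal and was lost in 21 of 33 alternative fits, with differences between -0.51 and -0.40 and adjusted p up to 0.137 (limma). Among these were the fits without any 1 line of Type 1, without line 1, 4 or 5 of Type 2, without line 1, 2, 6, 7 or 8 of Type 3, and without line 2, 3, 4 or 5 of Other. It was also lost with depot in the model (-0.45, adjusted p = 0.0852, limma) or the clone-name prefix, the depot letters and number (-0.51, adjusted p = 0.0525, limma); Type 1 is all PGF and 4 of 5 Type 2 lines are SCF. The call against Other was lost without any 1 line of Type 1 (0.44, 0.43 and 0.49; adjusted p = 0.0863, 0.082 and 0.055, limma) and when only the lines of those 2 groups were fitted (0.46, adjusted p = 0.088, limma). The second Dgat2 probe set passed against Type 2 (-0.44) and Type 3 (-0.38). It followed the first only in part (r = 0.578 over 23 lines) and ran from 5.00 to 5.87. Its Type 1 values, 5.09, 5.16 and 5.00, were near the table's median.

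Scd1 encodes stearoyl-CoA desaturase, which makes monounsaturated fatty acids. Its level was 10.52, 9.92 and 10.26 in the Type 1 lines and 10.55, 10.44, 10.92, 10.64 and 11.39 in the Type 2 lines. Type 3 ran from 10.44 through a median of 10.83 to 11.31 and Other from 10.11 through 10.70 to 11.16. The Type 1 lines were in the lower part of the scale but overlapped every other group. Only the difference from Type 3 (10.86 ± 0.34) passed, at -0.63 ± 0.24 (adjusted p = 0.0431, limma); that from Type 2 (10.79 ± 0.38) was -0.56 ± 0.26 (adjusted p = 0.117, limma) and Other (10.69 ± 0.40) exceeded Type 1 by 0.46 ± 0.24 (adjusted p = 0.164, limma). The call was lost in 10 of 33 alternative fits (adjusted p up to 0.206, limma). Among them were those without line 2 (-0.48) or line 3 (-0.65) of Type 1, and those without line 2, 3, 4 or 6 of Type 3 (-0.61 to -0.57), each left out alone. It was also lost with depot (-0.59, adjusted p = 0.0875, limma) or the clone-name prefix in the model (adjusted p = 0.0963, limma). The second Scd1 probe set (r = 0.538 with the first over 23 lines) did not pass against Type 3 (-0.33 ± 0.19, adjusted p = 0.2, limma).

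Plin2 encodes perilipin 2, the droplet coat protein found in most cell types. It was at 10.35, 10.18 and 10.30 in the Type 1 lines and at 10.57, 10.20, 11.08, 10.40 and 10.81 in the Type 2 lines. Type 3 ran from 9.90 through a median of 10.27 to 10.65 and Other from 10.11 through 10.36 to 10.71. All groups overlapped, with the highest values in lines 3 and 5 of Type 2. Type 1 and Type 3 had means of 10.28 each (SD 0.09 and 0.27), a difference of 0.001 ± 0.17 (adjusted p = 0.997, limma), and Type 2 (10.61 ± 0.34) exceeded Type 3 by 0.34 ± 0.15 without passing (adjusted p = 0.232, limma).

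Ldah encodes lipid droplet associated hydrolase. It read 8.98, 9.08 and 8.91 in the Type 1 lines and 9.14, 9.38, 9.49, 9.23 and 9.37 in the Type 2 lines. Type 3 ran from 8.65 through a median of 8.93 to 9.05 and Other from 8.78 through 8.96 to 9.18. All 5 Type 2 lines lay above all lines of Type 1 and Type 3, and line 1 of Type 2 fell below the highest line of Other. Type 2 (9.32 ± 0.14) exceeded Type 3 (8.90 ± 0.12) by 0.42 ± 0.08 (adjusted p = 0.0293, limma), a 1.34-fold difference and the one call among the 8 genes between these types. Its ranges did not overlap there, as for 3.28% of all genes. Type 1 (8.99 ± 0.09) lay -0.33 ± 0.10 from Type 2 (adjusted p = 0.0161, limma) and did not differ detectably from Type 3 (0.10 ± 0.09, adjusted p = 0.445, limma). Other (8.95 ± 0.13) lay -0.38 ± 0.08 from Type 2 without passing (adjusted p = 0.0783, limma), though it passed without line 4 of Type 3 (-0.38, adjusted p = 0.0483, limma) or line 7 of Other (-0.38, adjusted p = 0.0217, limma).

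The difference between Type 2 and Type 3 depended on the lines and on the probe set. It was lost without line 1, 2 or 3 of Type 2 (0.47, 0.41 and 0.38) or line 1, 2, 5 or 8 of Type 3 (0.43, 0.43, 0.43 and 0.41), with adjusted p from 0.0524 to 0.106 (limma). Of 6 Ldah probe sets 3 were tested, and 1 of the 3 passed. The others (r = 0.423 and 0.241 with the first over 23 lines) gave 0.29 ± 0.18 and 0.24 ± 0.17 (adjusted p = 0.433 and 0.479, limma). With all 6 averaged the difference was 0.22 (adjusted p = 0.0807, limma). Against Type 2, the lower Ldah of Type 1 was lost without line 1 (-0.32, adjusted p = 0.0583, limma) or line 3 of Type 1 (-0.29, adjusted p = 0.0794, limma), and with the clone-name prefix in the model (-0.31, adjusted p = 0.0741, limma).

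Pnpla2 encodes adipose triglyceride lipase, which takes the first fatty acid off stored triglyceride, and was the one gene of the 8 that passed as higher in Type 1. Its level was 8.01, 7.59 and 7.54 in the Type 1 lines and 7.56, 6.63, 6.87, 6.80 and 6.63 in the Type 2 lines. Type 3 ran from 6.13 through a median of 6.58 to 7.24 and Other from 6.55 through 6.80 to 7.16. The Type 1 lines were above every line of Type 3 and Other, and line 1 of Type 2 reached into their range. Type 1 (7.71 ± 0.26) exceeded Type 3 (6.67 ± 0.33) by 1.04 ± 0.20, a 2.06-fold difference (adjusted p = 0.000443, limma), and Type 2 (6.90 ± 0.38) by 0.81 ± 0.22 (adjusted p = 0.0089, limma). Other (6.83 ± 0.25) lay -0.88 ± 0.21 from Type 1 (adjusted p = 0.00291, limma). Without line 1 of Type 1 the difference from Type 2 was 0.66 and did not pass (adjusted p = 0.0751, limma), while those from Type 3 (0.89) and Other (-0.73) passed. The other Pnpla2 probe set stayed at 3.59 to 4.22 in all lines and did not follow the first closely (r = 0.175 over 23 lines). Averaged with the first, it left differences of 0.41, 0.54 and -0.46, which passed. A probe set that varies little shrinks the difference and the spread together. The averaged calls therefore rest on the first probe set and are not separate support.

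**Figure D2:**
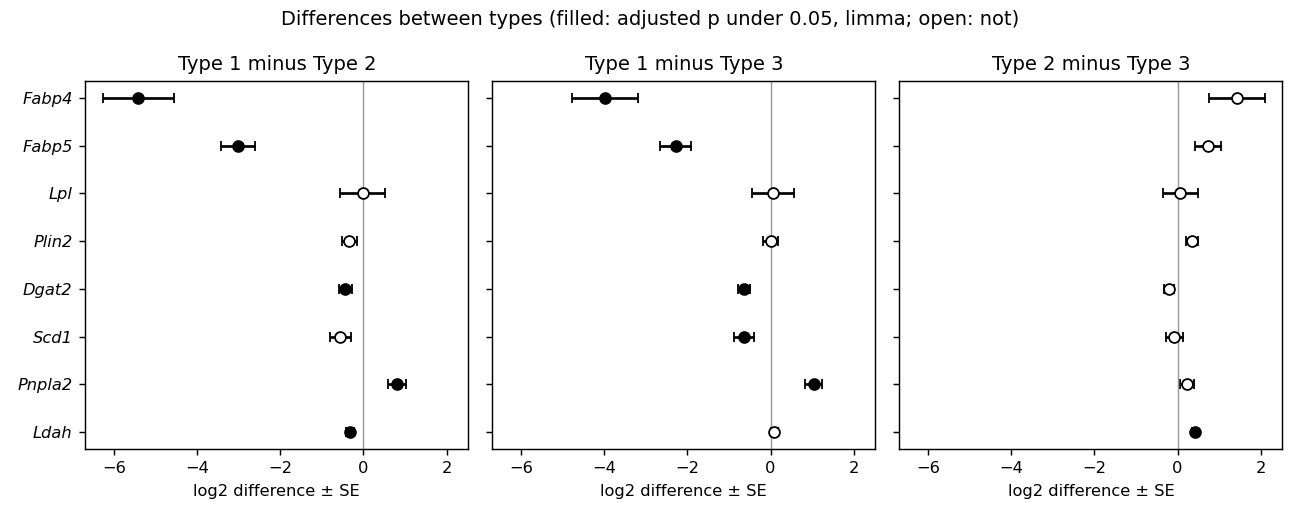
Log2 differences between types with their SE (x axis) for the 8 genes tested (y axis), 1 panel per pair of types; filled circles passed an adjusted p of 0.05 in limma. Fabp4 and Fabp5 lie far to the left in both panels with Type 1 (-5.41 and -3.02, -3.98 and -2.28), Pnpla2 lies to the right (0.81 and 1.04), and in the third panel only Ldah is filled (0.42).

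The ranges of Type 1 and Type 2 did not overlap for Fabp4, Fabp5, Dgat2 and Ldah, where 32.1% of all genes had no overlap. For Type 1 and Type 3 these were Fabp4, Fabp5, Dgat2 and Pnpla2 (29% of all genes), and for Type 1 and Other Fabp4, Fabp5 and Pnpla2 (20.1%). Fabp4 met the filter on low values only through lines outside Type 1, which favours such a gap. No member was without overlap between Other and Type 2 (0.691% of all genes) or Other and Type 3 (0.0406%). Line 1 of Type 1 had a wider gap between its 3′ and 5′ actin control probes, 1.58 against 0.53 to 1.00 in the other lines, a measure of RNA integrity. Its part in the results was not tested beyond leaving the line out: the 8 genes then gave 2 calls against Type 2, Fabp4 (-5.38) and Fabp5, where 16.3% of all genes passed, and 5 against Type 3, where 25.4% did.

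Other cell types were looked for with marker lists. Beside the counts of calls given for them, 25.2% of all genes passed between Type 1 and Type 2, and 34.7% between Type 1 and Type 3. The mean level of the 10 mesothelial markers on the array was 8.53 to 9.83 in the Type 1 lines and 3.81 to 5.12 in the other 20 lines. Wt1, a transcription factor of mesothelium, was at 10.40 to 10.65 in Type 1 and at most 5.24 elsewhere, and Upk3b at 12.19 to 12.59 and at most 7.08. Krt19 went the other way, at 4.97 to 6.37 in Type 1 and up to 9.76 elsewhere. Of the 8 tested, 5 (Wt1, Msln, Upk3b, Krt18 and Lrrn4) met the filter on low values only with the Type 1 lines counted. A filter met in that way favours a difference, so the count of calls is not used. The lower Fabp4, Fabp5 and Dgat2 and the higher Pnpla2 of Type 1 move with this list, and its part in them was not tested.

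The macrophage and leukocyte list, whose cells also express Fabp4 and Fabp5, was mixed. Its mean level over 12 markers was 4.60 to 4.70 in the Type 1 lines and 4.47 to 5.10 in the others. Ptprc (2.86 to 3.62), which marks leukocytes, and Adgre1 (3.23 to 3.82), which marks macrophages, were below the table's median in all 23 lines, while Csf1r (5.98 to 11.68) and Cd14 (7.13 to 8.95) were above it in all 23 and Cd68 ran from 4.12 to 7.66. Of 6 tested, 0 were higher and 1 lower in Type 1 than in Type 2, and 1 was higher and 2 lower than in Type 3. One of those lower than in Type 3, Lyz2 (-0.53), met the filter on low values only through lines outside Type 1. Csf1r, the receptor for macrophage colony-stimulating factor, lay -3.35 from Type 2 and -1.85 from Type 3, in the same sense as Fabp4 and Fabp5, and Cd68 was higher by 1.30 than in Type 3; their part in the results was not tested.

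The endothelial list, with a mean of 4.46 to 5.15 over the lines, was mixed too. Pecam1 (3.21 to 3.76) and Cdh5 (3.20 to 4.39) were below the table's median in all lines, and Kdr (5.49 to 8.86), Flt1 (5.47 to 6.34) and Egfl7 (5.33 to 6.49) above it in all. Of 6 tested, 1 was higher and 1 lower in Type 1 in both comparisons. The growth factor receptor Kdr was higher (2.03 and 2.19). Cldn5 was lower than in Type 2 (-0.36 ± 0.08) and the receptor Tek lower than in Type 3 (-2.92). Both Cldn5 and Tek met the filter on low values only through lines outside Type 1. The preadipocyte and fibroblast list averaged 8.11 to 10.24 per line, and of 11 tested 2 were higher and 2 lower in Type 1 than in Type 2, and 0 higher and 3 lower than in Type 3. Cd34 (4.42) and Icam1 (1.80) were higher than in Type 2. Pdgfrb (-2.41 and -2.51) and Vim (-0.78 and -0.65) were lower in both comparisons, and Pdgfra (-1.83) was lower than in Type 3. The mature fat cell list averaged 4.14 to 5.03: Cidec (2.90 to 3.77) and Lep (2.72 to 3.20) were below the table's median in all lines, Slc2a4 (6.02 to 6.45) and Retn (5.26 to 6.47) above it in all, and neither of those 2 passed. The pericyte and smooth muscle list averaged 5.55 to 7.36; 1 of 7 tested was higher and 1 lower in Type 1 than in Type 2, and 3 were higher and 1 lower than in Type 3, led by Tagln (4.63). Its Mcam, higher in both, met the filter only with the Type 1 lines counted.

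The regulators and neighbouring steps of the route were read from lists of genes that the 8 do not belong to. Of the genes named from them, Acsl6, Gpat3 and Pdk4 met the filter on low values only through lines outside Type 1. In Type 1, Pparg and Slc27a3 were above the filter level in 1 line each and Cebpa in 2. Beside the counts below, 25.2% of all genes passed between Type 1 and Type 2 (14.5% higher and 10.7% lower in Type 1). Between Type 1 and Type 3 it was 34.7% (18.9% higher and 15.8% lower). Among PPAR receptors and their partners, 1 of 9 was higher and 3 were lower in Type 1 than in Type 2, and 1 was higher and 4 lower than in Type 3. Pparg itself was at 4.17, 5.73 and 4.22 in the Type 1 lines and between 8.49 and 9.20 in the Type 2 lines, a difference of -4.06 ± 0.48 (adjusted p = 1.53e-06, limma); from Type 3 it was -3.28 ± 0.45. Cebpa, which acts beside it in fat cell formation, differed by -2.82 from Type 2 and -3.64 from Type 3, and Rxra, its DNA-binding partner, by -1.04 and -1.50. Ppargc1b, a coactivator of mitochondrial genes, went the other way: 8.68, 8.53 and 8.53 in the Type 1 lines against at most 5.94 in any other line, a difference of 3.24 ± 0.20 from Type 2 (adjusted p = 3.41e-11, limma) and 2.92 from Type 3.

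Carriers and transporters other than the 10 genes were mixed, with 4 of 10 higher and 2 lower in Type 1 than in Type 2, and 3 higher and 4 lower than in Type 3. Fabp3, the heart-type binding protein, was higher in Type 1, by 1.47 ± 0.50 against Type 2 and 1.39 ± 0.46 against Type 3. The receptor Vldlr exceeded Type 2 by 1.74, and Got2, a mitochondrial aminotransferase also proposed as a fatty acid binding protein, was lower in Other than in Type 1 by -0.56. Cavin1, a caveolar coat protein, was lower by -1.29 and -1.79, the receptor Lrp1 by -1.25 and -1.35, and the transporter Slc27a3 lay -1.46 from Type 3. Of 4 genes that control lipoprotein lipase, 1 was lower in both comparisons: Lmf1, needed to fold the lipase, at 5.55 ± 0.09 in Type 1, below the 6.37 ± 0.17 of Type 2 and the 6.40 ± 0.19 of Type 3 (-0.81 ± 0.15 and -0.85 ± 0.14). Lpl itself did not pass there. Of 7 genes listed with fatty acid activation, 0 were higher and 1 was lower in Type 1 than in Type 2, and 1 was higher and 2 lower than in Type 3. The acyl-CoA synthetase Acsl6 fell in both, by -2.15 ± 0.35 and -1.83 ± 0.33, and the acetyl-CoA synthetase Acss2 lay -1.37 from Type 3. The 1 that was higher was Acbd3 (0.23), an acyl-CoA binding domain protein and not an activating enzyme.

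Of 13 other genes of triglyceride synthesis, 1 was higher and 1 lower in Type 1 than in Type 2, and 2 were higher and 2 lower than in Type 3. Those are 15.4% and 30.8% of the list, below the 25.2% and 34.7% of all genes. Gpat3, a first-step acyltransferase, was at 3.40, 4.19 and 4.59 in the Type 1 lines and between 5.80 and 7.22 in all others, a difference of -2.67 ± 0.29 from Type 2 (adjusted p = 3.92e-07, limma) and -2.25 ± 0.27 from Type 3. The phosphatidate phosphatase Lpin2 was higher by 0.41 and 0.30. Against Type 3 the acyltransferases Mogat2 (0.64) and Agpat1 (-0.33) passed as well. Dgat1, the other diacylglycerol acyltransferase, did not pass in either comparison. Its mean was 7.72 in Type 1, 7.81 in Type 2, 7.82 in Type 3 and 7.76 in Other. Of 15 genes of fatty acid synthesis and desaturation, 2 were higher and 2 lower against Type 2, and 2 higher and 1 lower against Type 3. Those are 26.7% and 20% of the list, near the share over all genes in the first comparison and below it in the second. The desaturase Fads2 (1.02 and 0.77) and the elongase Elovl5 (0.92 and 0.53) were higher in Type 1, while malic enzyme Me1 (-0.53) was lower than in Type 2 and ATP citrate lyase Acly (-0.74) lower than in Type 3. Of 9 genes of fatty acid oxidation, 0 were higher and 1 was lower against Type 2, and 0 and 2 against Type 3, led by the kinase Pdk4, which holds back glucose oxidation (-2.94 ± 0.51 and -2.22 ± 0.47). The calls are 11.1% and 22.2% of that list, again below the shares over all genes. The counts of these lists are therefore not read as changes of whole routes.

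Of 11 other genes listed as droplet proteins, 0 were higher and 1 lower in Type 1 than in Type 2, and 1 was higher and 2 lower than in Type 3. Those are 9.09% and 27.3% of the list, below the 25.2% and 34.7% of all genes. Plin4, a perilipin of fat cells, was the one that passed against both (-2.31 ± 0.60 and -1.57 ± 0.56). Its highest levels, 9.55 and 9.48, were in lines 1 and 3 of Type 2, which also had the highest Fabp4. Against Type 3 the droplet dehydrogenase Hsd17b11 was lower (-0.77). Lsm6 (0.50), the 1 listed gene that was higher, is known as an RNA-processing gene and not as a droplet protein. Among 7 genes of lipolysis other than Pnpla2, 3 were higher and 0 lower in Type 1 than in Type 2, and 3 higher and 2 lower than in Type 3. The 3 were the same in both: the monoacylglycerol lipases Mgll (1.87 ± 0.29 and 1.57 ± 0.27) and Abhd6 (1.71 ± 0.24 and 1.97 ± 0.22), and the phosphodiesterase Pde3b (1.90 ± 0.34 and 1.61 ± 0.32), which is known for restraining lipolysis under insulin. Lipa, the lysosomal acid lipase, lay -0.64 ± 0.17 from Type 3.  Of the fat cell hormones, 1 was tested and it did not pass.

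Against Other, the same lists gave 4 higher and 1 lower of 9 for PPAR partners, 3 and 2 of 10 for carriers, 1 and 3 of 7 for lipolysis and 0 and 0 of 15 for fatty acid synthesis, counted as higher or lower in Other than in Type 1. Among all genes 28.4% passed there (12.4% higher and 16% lower in Other). None of these lists had a member that passed between Type 2 and Type 3, between Other and Type 2 or Type 3, between depots or along the score. Of all genes, 0.382% passed between Type 2 and Type 3, 0.00813% between Other and Type 2, and 0% in the rest. At those shares, lists this short would give few or no calls.

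**Figure D3:**
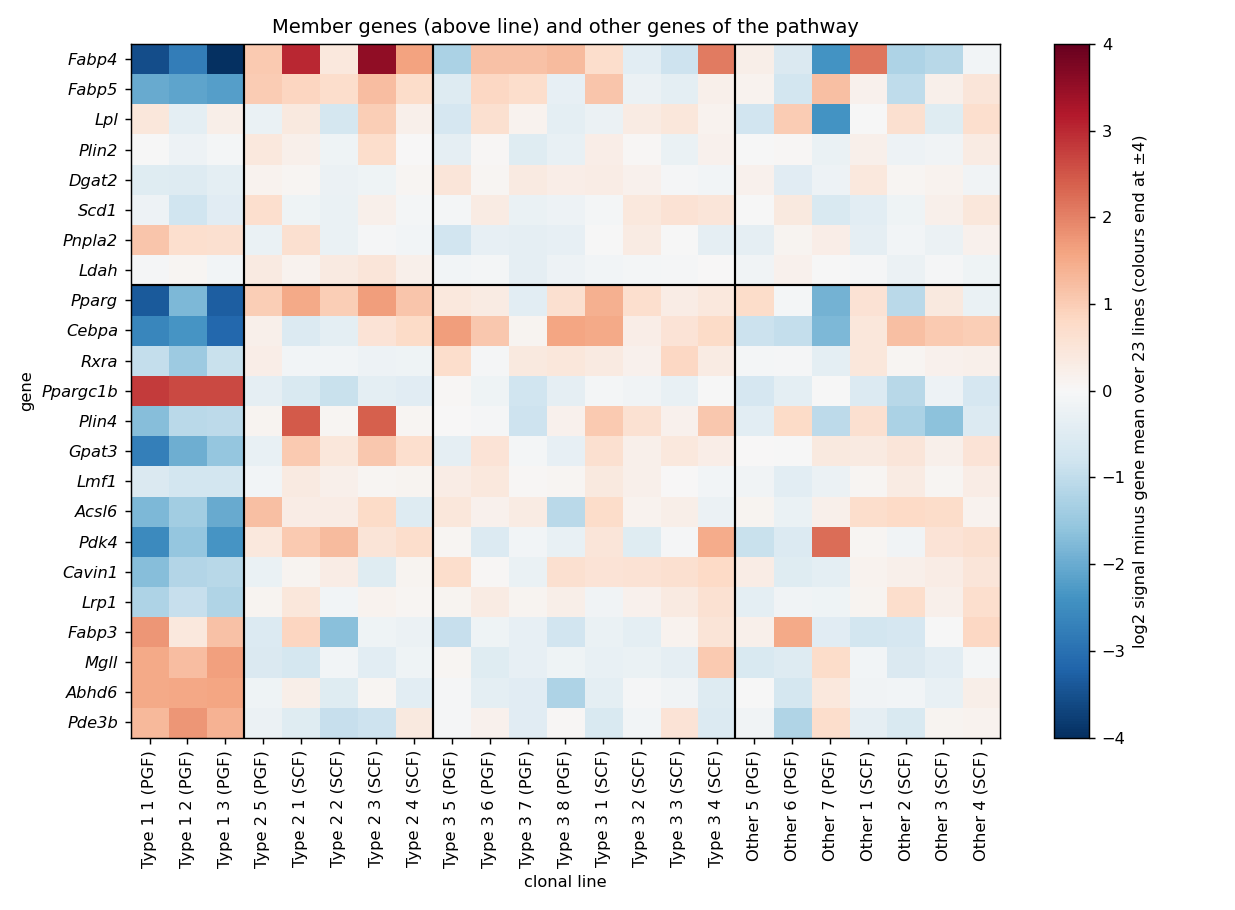
Each row is a gene and each column a line, and the colour is the log2 signal minus that gene's mean over 23 lines (colours end at 4 in either direction); the horizontal line parts the 8 genes from other genes of the route, and vertical lines part the groups. The 3 Type 1 columns at the left are blue for Fabp4, Fabp5, Pparg, Cebpa and Gpat3 and red for Pnpla2, Ppargc1b, Mgll, Abhd6 and Pde3b, and line 7 of Other is blue for Fabp4, Lpl and Pparg.

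By depot, none of the 8 genes passed with the group in the model, and none of all genes did (0%; 1034 genes had an unadjusted p under 0.05, limma). Fabp4 ran from 3.01 through a median of 6.57 to 8.41 in the 11 PGF lines and from 5.91 through 7.72 to 10.69 in the 12 SCF lines. All 3 Type 1 lines are PGF, and without them PGF ran from 4.74 through 7.78 to 8.41, inside the SCF range except at the low end. The means were 7.23 ± 1.37 (n = 8) and 7.97 ± 1.63 (n = 12), and the fitted difference, PGF minus SCF within groups, was -0.42 ± 0.56 (adjusted p = 0.866, limma). Lpl had the largest fitted difference, -0.54 ± 0.34 (adjusted p = 0.665, limma), with 11.78 ± 1.04 in PGF outside Type 1 and 12.31 ± 0.50 in SCF; the PGF lines include line 7 of Other at 9.72. For Pnpla2 the difference was -0.20 ± 0.14, for Plin2 -0.15 ± 0.12 and for Fabp5 0.11 ± 0.26, and for Dgat2, Scd1 and Ldah it was under 0.1 in size.

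Type 3 and Other each held both depots in number. In Type 3 the 4 PGF lines had Pnpla2 at 6.13 to 6.59 and the 4 SCF lines at 6.54 to 7.24, and in Other the values were 6.55 to 7.16 (3 PGF lines) and 6.55 to 7.08 (4 SCF lines). Dgat2 was at 7.06 ± 0.16 in PGF and 6.84 ± 0.19 in SCF of Type 3, and at 6.60 ± 0.31 and 6.89 ± 0.24 in Other, so its depot difference had opposite signs in the 2 groups. The test of the difference between those depot differences did not pass for any of the 8 genes, the smallest adjusted p being 0.63 for Dgat2 (limma, interaction term).

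Along the differentiation score none of the 8 genes had a slope that passed, and none of all genes did (0%; 872 genes had an unadjusted p under 0.05, limma). Outside Type 1, Fabp4 ran from 4.74 through a median of 7.33 to 10.69 in 8 lines scored 2, from 6.57 through 7.86 to 9.28 in 7 lines scored 3, and from 5.90 through 7.58 to 9.23 in 5 lines scored 4. The 3 means were 7.62 ± 2.17, 7.75 ± 1.00 and 7.66 ± 1.22, and the slope was -0.01 ± 0.34 per point (adjusted p = 0.997, limma). Lines scored 2 thus held both the lowest and the highest Fabp4 levels, with 3 Type 1 lines at the bottom and lines 1 and 3 of Type 2 at the top. Fabp5 had means of 10.36 ± 0.80, 10.10 ± 0.66 and 10.22 ± 0.58 and a slope of -0.08 ± 0.16.

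Pnpla2 had the smallest unadjusted p of the 8 for the score. Outside Type 1 its means were 6.91 ± 0.31, 6.84 ± 0.28 and 6.50 ± 0.21 for scores of 2, 3 and 4. The slope was -0.18 ± 0.08 per point (adjusted p = 0.666, limma). The 5 lines scored 4 lay between 6.13 and 6.63, inside or below the range of the lines scored 3 (6.55 to 7.24). Lpl was at 12.11 ± 1.06, 12.40 ± 0.52 and 11.66 ± 0.39 for the 3 scores, with a slope of -0.20 ± 0.21 (adjusted p = 0.89, limma). Slopes of the other genes were 0.09 ± 0.10 for Scd1, 0.06 ± 0.07 for Plin2, 0.05 ± 0.04 for Ldah and 0.01 ± 0.06 for Dgat2. A difference of these slopes between PGF and SCF lines did not pass for any of the 8 (smallest adjusted p = 0.961, Fabp5, limma interaction term).

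**Figure D4:**
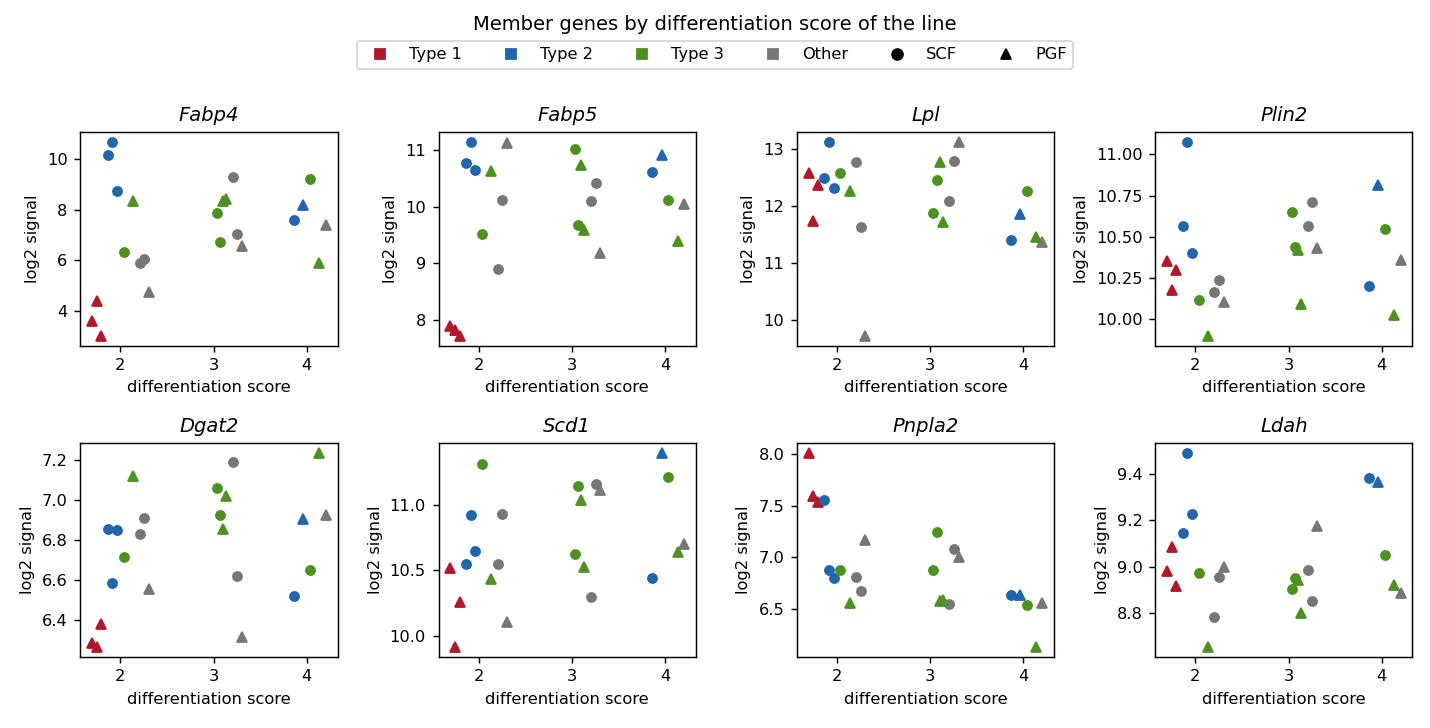
Log2 signal (y axis) of the 8 genes against the differentiation score of the line (x axis; points are shifted sideways by group so that they can be told apart); colours mark the group and shapes the depot. For Fabp4 the lines scored 2 span 3.01 to 10.69, wider than the lines scored 3 (6.57 to 9.28) or 4 (5.90 to 9.23), and for Pnpla2 the 5 lines scored 4 lie between 6.13 and 6.63.

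The 8 genes differed in how far they varied among the 20 lines outside Type 1. Fabp4 had an SD of 1.54, at percentile 99.4 of all genes tested, Lpl 0.78 (percentile 95.1) and Fabp5 0.68 (percentile 93.2), where the median gene had 0.22. Scd1 (0.36), Pnpla2 (0.32), Plin2 (0.29) and Dgat2 (0.24) lay between percentiles 56.9 and 78.6, and Ldah (0.22) at 49.2. Within groups, Ldah had an SD of 0.12, at percentile 7.9.

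Among the 28 pairs of the 8 genes, over the same 20 lines, none passed after Benjamini-Hochberg adjustment over the pairs. The closest were Plin2 with Ldah (r = 0.588, permutation p = 0.00649, adjusted 0.091; rho = 0.444, permutation p = 0.0516, adjusted 0.217) and Fabp4 with Plin2 (r = 0.584, permutation p = 0.00733, adjusted 0.091; rho = 0.489, permutation p = 0.0307, adjusted 0.217). Without the 2 lines farthest from the median on the first gene, r fell to 0.292 and 0.389. Leaving out extreme lines also narrows the range, which by itself lowers r. The fall therefore cannot tell whether the pairs rest on those lines. By depot, r for Fabp4 with Plin2 was 0.726 in 12 SCF and 0.252 in 8 PGF lines, and for Plin2 with Ldah 0.352 and 0.863. Fabp4 with Fabp5 gave 0.444 over these lines and Fabp4 with Pnpla2 0.027.

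The genes outside the 10 whose levels ran most closely with each of them over the 20 lines are given as a description; all values come from 1 array per line. For Fabp4 they were Mbd6 (r = 0.744), Plin4 (0.732) and Mtus2 (0.713), and for Fabp5 Tsc22d2 (0.799), Bag2 (0.778) and Acta2 (0.766). For Lpl they were Srpx2 (0.899), Cacna1a (0.864) and Wipi1 (0.854), and for Plin2 Mettl3 (0.807), Wdr60 (0.768) and Snx25 (0.755). For Dgat2 they were Rplp0 (0.86), Hoatz (0.852) and Pik3r3 (0.848), and for Pnpla2 Cap1 (0.811), Syk (0.785) and Nipal1 (0.76). For Ldah they were Esyt2 (0.855), Fkbp11 (0.728) and Nol7 (0.721). For Scd1 they were Nsdhl (0.905), Fdft1 (0.881) and Hmgcs1 (0.876). With Type 1 included, r was 0.874, 0.666 and 0.722 for these, 0.779 for Fabp4 with Plin4, and 0.094 for Fabp5 with Acta2.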

How the data were processed

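Expression was measured on 1 array for each of 23 lines. The authors deposited log2 values; their notes name MAS5, per the submitters' processing notes, and the sources used here do not state background, scaling or any offset. The deposited log2 values had array medians of 5.09 to 5.16, and no array duplicated another. The number of lines limits the precision; no depth applies.

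Of 45101 probe sets, 34945 carried 1 gene symbol, 932 several and 9211 none in the platform annotation (64 controls were left out of the first count). All values were used as deposited. Means of the 4 groups were fitted together with limma 3.58.1 (R 4.3.3), with empirical Bayes variances and Benjamini-Hochberg adjustment over 12307 genes. Depot and score were fitted with the group in the model. The procedure was tested on simulated data. Pairs of genes were tested by permutation in Python 3.11.15 with numpy 2.4.6 and pandas 2.3.3, and figures were drawn with matplotlib 3.10.9.

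The 10 genes were named in every comparison; of each list, up to 4 genes that passed were named by size of difference, and the 3 genes closest to each member by r. The members and lists were chosen with earlier results of these data known. Alternatives changed the filter, scaling, probe set rule, weights, covariates or lines.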

Additional observations from a re-analysis of the deposited data

Results flagged for a closer look

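Pnpla2 in line 1 of Type 2 was 7.56, with the next of the 5 Type 2 lines at 6.87 and the lowest at 6.63. Its gap to the nearest line was 0.736 of the group's range, above Dixon's limit for 5 samples. This was 1 of 27 groups of values examined, and chance gives about 1 in 20. The same line had the second highest Fabp4 of all lines, 10.16.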

How the results depend on the processing

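Each comparison of groups was refitted under 33 alternatives. The 17 differences of single genes that passed in any fit kept their sign in all 561 refits; of 47 that never passed, 94 of 1575 refits had the other sign. Fabp4 and Fabp5 passed between Type 1 and each of the other groups in all 33. The count of the 8 genes passing for Type 1 against Type 2 was 3 with the clone-name prefix in the model (20.1% of all genes passing, against 25.2%) and 2 to 5 with 1 line left out (2 without line 1 and 3 without line 3 of Type 1, with 16.3% and 19.7% of all genes). With 1 line left out it was 4 to 5 against Type 3 (25.4% to 35.9% of all genes) and 3 to 4 for Other against Type 1 (19.7% to 31.0%). For Type 2 against Type 3 it was 0 with probe sets averaged (0.00884% of all genes) and 0 to 1 with 1 line left out (0% to 1.58%). For Other against Type 2 it was 1 with array weights (0.845%) and 0 to 1 with 1 line left out (0% to 1.76%). The remaining counts were 0 to 0. Over all genes, 3099 passed for Type 1 against Type 2 and 5818 with array weights. For Type 2 against Type 3, 47 passed, against 1 with probe sets averaged, 9 with no filter, 1037 with array weights, 551 with only those lines, 133 with depot and 315 with the clone-name prefix; for Other against Type 2, 1 passed and 104 with array weights. The weights' fit gave convergence warnings. The cause was not tested. The score as a covariate was added after seeing the data. No paired analysis was possible because the replicate numbers only name lines. Signals near the bottom of the scale (Cd36, and Fabp4 in Type 1) limit what can be said of those genes. Other named genes, among them Pparg, Cebpa, Gpat3, Pdk4 and Acsl6, were below the table's median in some or all Type 1 lines. The sizes of their differences are limited in the same way.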
